A study of Homo sapiens with 60 samples.

Results

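PDK4 and 8 genes around it in fatty acid use were followed in A549, an established line from a human lung carcinoma, treated for 24 h with herbal extracts. The 9 genes, out of 60675 gene identifiers, were chosen by name: PDK4, ANGPTL4, PLIN2, CPT1A, CPT2, ACADVL, HADHA, PPARA and PPARD. They were picked because earlier results of these data showed PDK4 low in Zizyphi Semen and Aucklandiae Radix while other targets of the PPAR receptors were not. Those values are therefore given as a description, with no test for PDK4 in any comparison and no test for any gene in Zizyphi Semen. All 9 were found, and all 9 passed the filter on low counts.

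RNA was sequenced from 60 libraries in 25 groups: 8 extracts at 3 doses each (high, medium, low), and vehicle. Zizyphi Semen, Longan Arillus, Schisandrae Fructus and Liriopis seu Ophiopogonis Tuber, all ethanol extracts, and Yijin-tang, a water extract, were given at 500, 100 and 20 µg/mL with 3 libraries per dose. Soshiho-tang, also a water extract, was given at the same doses with 2 libraries each. The ethanol extracts Aucklandiae Radix (370, 74 and 14.8 µg/mL) and Polygalae Radix (380, 76 and 15.2 µg/mL) had 1 library per dose. Vehicle had 3 libraries and was 0.1% DMSO by the labels, against 2% in the series' design text. Whether replicates came from separate cultures is not stated, so p-values measure the spread between libraries, which may be technical. By their labels, libraries belong to numbered sets of 2 extracts each. Set 8 holds Soshiho-tang with Yijin-tang, set 9 Schisandrae Fructus with Liriopis seu Ophiopogonis Tuber, set 10 Zizyphi Semen with Longan Arillus, and set 11 Aucklandiae Radix with Polygalae Radix, while the vehicle libraries form set C1. A difference from vehicle therefore cannot be told apart from a difference between sets, and high doses were set against the low dose of the same extract as well.

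Cells choose between glucose and fatty acids partly at the pyruvate dehydrogenase complex, which turns pyruvate into acetyl-CoA. PDK4 is a kinase that phosphorylates this complex and switches it off, sparing glucose when fat is burned. PPARA and PPARD are fatty acid-sensing nuclear receptors that bind DNA with RXR partners and raise PDK4 together with genes of fatty acid transport and beta-oxidation. Among those, CPT1A and CPT2 pass long-chain acyl groups into mitochondria, ACADVL opens the beta-oxidation cycle on very long chains, and HADHA with HADHB carries out its later steps. ANGPTL4 is a secreted inhibitor of lipoprotein lipase, and PLIN2 coats lipid droplets. Glucocorticoids and FOXO factors also raise PDK4.

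The promoters of PDK4 and ANGPTL4 are shown because these genes differed from vehicle in opposite directions in the same extracts. RefSeq held start sites for all 9 genes, as 11 windows, on GRCh38.p14. Each sequence is the 250 bases before the start, read 5′ to 3′ on the gene's strand, for PDK4 on the minus strand at chr7:95596517-95596766 and for ANGPTL4 on the plus strand at chr19:8363905-8364154. Capitals mark motif matches.
PDK4: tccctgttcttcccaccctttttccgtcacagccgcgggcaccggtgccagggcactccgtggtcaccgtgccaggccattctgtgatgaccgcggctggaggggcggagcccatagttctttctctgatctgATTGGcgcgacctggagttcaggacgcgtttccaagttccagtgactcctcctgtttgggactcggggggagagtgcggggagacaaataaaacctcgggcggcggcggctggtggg
ANGPTL4: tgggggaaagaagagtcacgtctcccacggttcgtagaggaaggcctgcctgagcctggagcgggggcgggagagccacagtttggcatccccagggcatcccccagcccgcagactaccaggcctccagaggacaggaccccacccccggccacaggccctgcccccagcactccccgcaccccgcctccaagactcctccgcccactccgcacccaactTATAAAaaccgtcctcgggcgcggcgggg
Motifs were searched on both strands in the same 250 bases. They were the PPAR recognition hexamer AGGTCA (in 12.1% of 35116 promoter windows), its direct repeat with 1 base between, DR1 (0.0171%), the FOXO motif GTAAACA (2.98%), the steroid receptor motif ACANNNTGT (4.61%), the CCAAT box (32.0%), the E-box CACGTG (6.34%) and TATAAA (10.7%). PDK4 held a CCAAT box in reverse, ATTGG, whose first base lies at -117. ANGPTL4 held TATAAA at -29. PLIN2 held CACGTG at -69 and TTTATA, the reverse of TATAAA, at -29. PPARA and PPARD each held a CCAAT box, ACADVL held TTTATA at -32, and no motif of the 7 was matched for CPT1A, CPT2 or HADHA. The first 4 motifs were matched in none of the 9 genes' windows, which says only that these letters are absent there.

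Libraries held 18.003 to 33.832 M counts (M, units of 1e6). Summed markers of epithelium and A549 cells lay between 2617 and 20803 CPM (counts per 1e6 counts), while the medians of all 5 hepatocyte and all 4 endothelial markers were under 0.1 CPM. Other marker lists were not all near the floor. Their median sums were 37.6 CPM (6 fibroblast markers), 31.1 CPM (5 muscle), 4.74 CPM (6 leukocyte) and 4.40 CPM (5 adipocyte). Single genes made up most of the 2 largest sums. Among muscle markers TNNT1 held 572 to 1314 counts per library and ACTA1 at most 9, with MYH7, CKM and MYL2 at medians under 0.1 CPM. Among fibroblast markers COL1A1 held 323 to 1042 counts and COL3A1 53 to 173, with COL1A2 and DCN at medians under 0.1 CPM. Among the libraries, replicate 3 of Longan Arillus low and replicate 3 of Soshiho-tang medium stood apart, with low levels of long transcripts: for each doubling of length the log2 level changed by -0.49 to -0.42 in them, against -0.10 to 0.10 in the other 58. Tests are given over 54 libraries, and several also without both (52 libraries in the fit). Each fit shares a common dispersion, an estimate of spread between replicates, so both libraries also bear on tests of groups without them. The common dispersion was 0.0173 over 54 libraries and 0.00244 over 52. Genes with adjusted p below 0.05 in edgeR were 905 and 3920 in Soshiho-tang high against vehicle. In Longan Arillus high against low, which holds such a library, they were 3344 and 16. A gene not called over 54 libraries may therefore still differ. Levels below are CPM scaled by TMM factors. A gene was called at an adjusted p below 0.05 in edgeR's quasi-likelihood test with Benjamini-Hochberg adjustment over 17826 genes, and the error of a log2 fold change is its SE.

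Per kilobase of the longest transcript, HADHA stood highest in vehicle cells at 82.7 ± 1.22 CPM per kb (SD, n = 3), and ACADVL followed at 62.2 ± 2.01. CPT1A was at 15.1 ± 0.28, ANGPTL4 at 11.5 ± 0.36, PDK4 at 9.34 ± 0.57 and PLIN2 at 8.31 ± 0.32 CPM per kb. Lower still were PPARD at 3.13 ± 0.23, CPT2 at 2.93 ± 0.19 and PPARA at 0.497 ± 0.047 CPM per kb. PPARG, the third PPAR receptor and not among the 9, was at 16.5 ± 0.23 CPM per kb, above PPARD and PPARA on this scale.

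PDK4, at chromosome 7, 95583499 to 95596491 on the minus strand (GENCODE 29, GRCh38), was lowest at the high doses of Zizyphi Semen and Aucklandiae Radix. PDK4 measured 34.8, 31.1 and 34.3 CPM in vehicle and, in Zizyphi Semen, 36.2, 36.5 and 32.2 CPM at the low dose, 32.7, 28.97 and 28.0 CPM at the medium dose, and 20.5, 22.3 and 20.4 CPM at the high dose. The 3 high-dose libraries lay below every other of the 54 libraries of replicated groups, the nearest being Longan Arillus low replicate 3 at 26.4 CPM, one of the 2 that stand apart, and Zizyphi Semen medium replicate 3 at 28.0 CPM. The mean was 21.1 ± 1.06 CPM at the high dose against 35.0 ± 2.38 CPM at the low dose and 33.4 ± 2.03 CPM in vehicle (SD, n = 3 each). The log2 fold change was -0.65 ± 0.088 (vehicle) and -0.73 ± 0.089 (low dose). In bulk RNA, fewer cells of a kind and less RNA per cell cannot be told apart. Summed over 8 epithelial and A549 markers, the level was 13975 to 14210 CPM in Zizyphi Semen high and 8969 CPM in Aucklandiae Radix high, against 15894 to 16232 CPM in vehicle, and its part in these values was not tested. In Aucklandiae Radix, PDK4 was at 40.9, 34.7 and 20.9 CPM at the low, medium and high dose. The high-dose library held 459 PDK4 counts, for a 95% Poisson interval of 19.1 to 23.0 CPM that covers counting error only. Its log2 ratio of (CPM + 1) was -0.65 to the vehicle mean and -0.93 to the low dose. These extracts differ in dose (500 against 370 µg/mL) and replication, so their values stand side by side without a comparison.

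**Figure D1:**
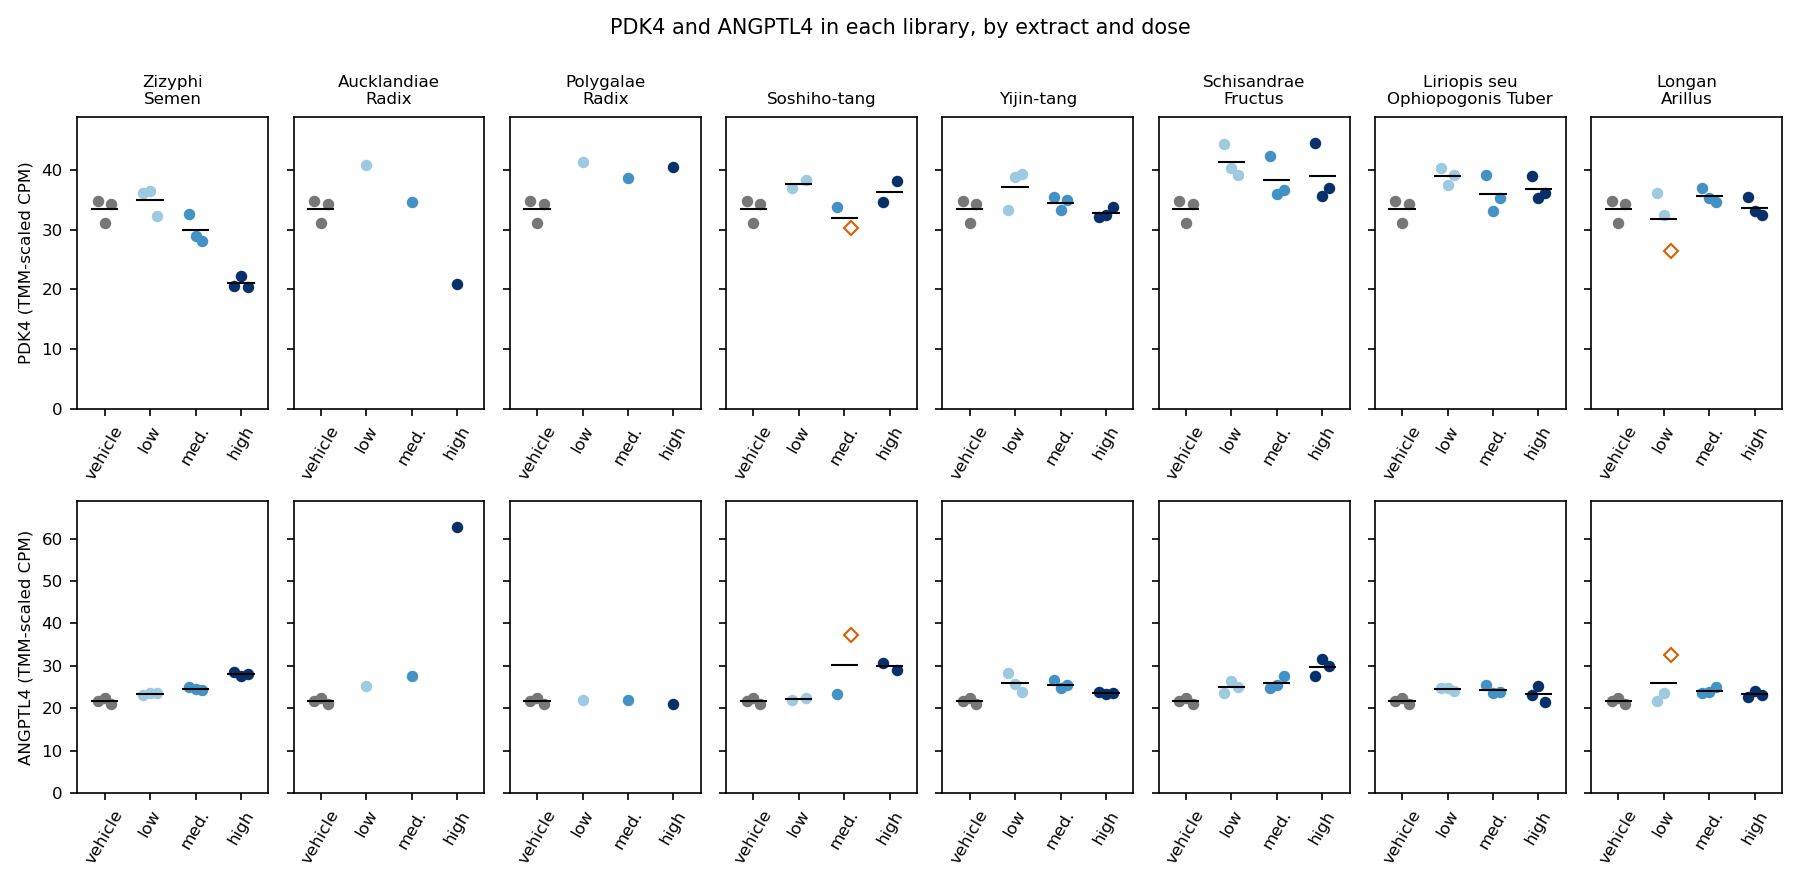
PDK4 (upper row) and ANGPTL4 (lower row) in TMM-scaled CPM for each library, with vehicle, low, medium and high dose from left to right in each extract; points are libraries, lines are group means, and open diamonds are the 2 libraries that stand apart. PDK4 was at 20.9 CPM in Aucklandiae Radix high, where ANGPTL4 reached 62.7 CPM, and at a mean of 21.1 CPM in Zizyphi Semen high.

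The other 23 group means ran between 29.9 CPM in Zizyphi Semen medium and 41.3 CPM in Polygalae Radix low. In order of the means, Aucklandiae Radix high and Zizyphi Semen high came lowest and overlapped, and Zizyphi Semen medium came next with no overlap with Zizyphi Semen high. From there up, each group's range overlapped its lower neighbour's, except for Polygalae Radix high (40.5 CPM) and Aucklandiae Radix low (40.9 CPM), which are single libraries. Vehicle ranked 7 of 25 from the bottom. Of 51 extract libraries in replicated groups, 30 had more PDK4 than every vehicle library and 7 had less. Of 19 low-dose libraries over the 8 extracts, 15 were above every vehicle library and 1 was below. Among the high doses, Schisandrae Fructus had 44.5, 35.6 and 37.0 CPM, Liriopis seu Ophiopogonis Tuber 38.9, 35.3 and 36.1 CPM and Soshiho-tang 34.6 and 38.1 CPM. Longan Arillus high had 35.4, 33.0 and 32.4 CPM and Yijin-tang high 32.1, 32.4 and 33.9 CPM. Their fitted changes were between -0.01 ± 0.087 (Yijin-tang) and 0.23 ± 0.087 (Schisandrae Fructus) against vehicle, and between -0.17 ± 0.087 (Yijin-tang) and 0.06 ± 0.088 (Longan Arillus) against the low dose. In Polygalae Radix, PDK4 was at 41.3, 38.6 and 40.5 CPM from low to high dose.

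The related kinases PDK1, PDK2 and PDK3 act on the same complex. Their fitted changes in Zizyphi Semen from low to high dose, given without a test, were 0.15 ± 0.094 for PDK1, 0.05 ± 0.091 for PDK2 and -0.06 ± 0.11 for PDK3. Against vehicle, PDK3 stood lower in Zizyphi Semen high, at 7.28 ± 0.79 CPM against 9.43 ± 0.36 CPM (n = 3 each), a log2 fold change of -0.36 ± 0.10, and PDK2 stood higher, at 22.7 ± 0.89 CPM against 18.9 ± 0.92 CPM, one of 0.28 ± 0.090. PDK2 exceeded every vehicle library in 18 of 19 low-dose libraries as well. PDK3 had group means of 6.605 to 8.305 CPM in all 12 groups of sets 10 and 11, Zizyphi Semen low (7.59 CPM) among them. In Aucklandiae Radix high the log2 ratios to the low dose were 0.03, -0.01 and 0.19. PDK1 was called in Soshiho-tang high against vehicle, at 15.4 ± 1.38 CPM (n = 2) against 10.5 ± 0.54 CPM (n = 3), a log2 fold change of 0.57 ± 0.10 with adjusted p = 0.000233 in edgeR. Against the low dose its change of 0.40 ± 0.11 had adjusted p = 0.065. In the fit of 52 libraries PDK1 was called there (0.39 ± 0.10, adjusted p = 0.00735), as was PDP1 (0.36 ± 0.11, adjusted p = 0.0244). In Polygalae Radix high PDK1 had 15.4 CPM and PDK2 10.1 CPM, against vehicle means of 10.5 and 18.9 CPM. Of 13 genes of the pyruvate dehydrogenase axis, PDK1 and PDP1, a phosphatase that reactivates the complex (0.40 ± 0.12, adjusted p = 0.0472), were higher in Soshiho-tang against vehicle, where 3.02% of all genes were called higher and 5.08% in either direction. DLD, its dihydrolipoamide dehydrogenase subunit, was lower (-0.18 ± 0.047, adjusted p = 0.0153). The median log2 fold change of the 13 was -0.05, against 0.00 over all genes tested.

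ANGPTL4 (chromosome 19, 8363289 to 8374373, plus strand) had its highest group mean in Aucklandiae Radix high, where the PDK4 mean was the lowest of 25. In Aucklandiae Radix it was at 25.2, 27.6 and 62.7 CPM at the low, medium and high dose, and the interval at the high dose was 59.4 to 66.1 CPM from 1373 counts. Its log2 ratio at the high dose was 1.49 to the vehicle mean and 1.28 to the low dose. ANGPTL4 was the 1 member past 2-fold in Aucklandiae Radix high against vehicle, where 0.797% of genes were 2-fold higher (0.572% against the low dose). Vehicle had 21.6, 22.3 and 21.0 CPM, and the Zizyphi Semen libraries had 23.1, 23.6 and 23.6 CPM (low dose), 25.1, 24.5 and 24.2 CPM (medium) and 28.6, 27.6 and 28.0 CPM (high). The high-dose libraries lay above all libraries at the lower doses and vehicle. The fitted changes, with no test, were 0.39 ± 0.11 (vehicle) and 0.26 ± 0.11 (low dose).

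ANGPTL4 was called against vehicle in 2 extracts where PDK4 was not low. In Soshiho-tang high it had 30.8 and 28.9 CPM, against 21.8 and 22.4 CPM for the low dose and 21.6, 22.3 and 21.0 CPM for vehicle. The groups did not overlap. Such separation is a description, here and for the other genes, since the share of all genes that show it was not counted. The rise against vehicle was 0.48 ± 0.12 (adjusted p = 0.0091), and the change against the low dose was 0.43 ± 0.13 (adjusted p = 0.0995; below 0.05 in the fit of 52 libraries). In Schisandrae Fructus high it had 27.5, 31.6 and 30.1 CPM, against 23.6, 26.5 and 24.9 CPM at the low dose, again without overlap. Against vehicle it rose by 0.46 ± 0.11 (adjusted p = 0.0185), and against the low dose its change was 0.24 ± 0.11 (adjusted p = 1; below 0.05 in the fit of 52 libraries). In Yijin-tang the direction was the other one, with 23.8, 23.4 and 23.6 CPM at the high dose against 28.3, 25.6 and 23.9 CPM at the low dose, a change of -0.13 ± 0.11 (adjusted p = 1). The change from low to high dose differed between Soshiho-tang and Yijin-tang by 0.56 ± 0.17 (adjusted p = 0.289), or by 0.56 ± 0.091 with adjusted p = 4.98e-05 in the fit of 52 libraries. The call against vehicle was lost in Soshiho-tang without high replicate 2 (0.43, adjusted p = 0.163 in edgeR). In Schisandrae Fructus it was lost without any 1 of the 3 vehicle libraries, high replicate 2 or high replicate 3 (0.42 to 0.49, adjusted p between 0.0559 and 0.122). Polygalae Radix gave 22.0, 21.9 and 21.1 CPM from low to high dose. Of the 51 extract libraries in replicated groups, 48 lay above every vehicle library, as did 16 of 19 low-dose libraries. Soshiho-tang medium replicate 3 (37.2 CPM) and Longan Arillus low replicate 3 (32.5 CPM), the 2 libraries that stand apart, had the highest ANGPTL4 of the 54.

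PLIN2 (chromosome 9, 19108375 to 19149290, minus strand) was higher in Soshiho-tang. It had 21.5 and 21.5 CPM at the high dose, against 14.9 and 16.8 CPM for the low dose and 15.7, 16.4 and 17.0 CPM for vehicle, with no overlap. The rise was 0.41 ± 0.089 against vehicle (adjusted p = 0.00266) and 0.44 ± 0.099 against the low dose (adjusted p = 0.00953). In Yijin-tang high it had 17.9, 19.9 and 19.2 CPM, against 15.4, 15.8 and 16.5 CPM at the low dose, also without overlap. Its change there was 0.23 ± 0.080 against vehicle (adjusted p = 0.291; below 0.05 in the fit of 52 libraries) and 0.26 ± 0.081 against the low dose (adjusted p = 0.492). Aucklandiae Radix gave 14.7, 16.9 and 20.9 CPM from low to high dose. Zizyphi Semen high gave PLIN2 at 18.6, 17.6 and 17.5 CPM, against 17.9, 16.1 and 13.7 CPM at the low dose, with overlapping ranges. The calls in Soshiho-tang rest on 2 libraries: PLIN2 was not called against vehicle without either high-dose library (0.41 each, adjusted p = 0.0659 and 0.0516 in edgeR). Against the low dose it was not called without either of those or low replicate 2 (0.36 to 0.44, adjusted p between 0.104 and 0.354).

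CPT1A (chromosome 11, 68754620 to 68844410, minus strand), the entry enzyme of mitochondrial fatty acid oxidation, had its highest and lowest group means in the single-library extracts. It was at 79.5, 77.6 and 80.6 CPM in vehicle, at 77.0, 87.6 and 103 CPM in Aucklandiae Radix from low to high dose, and at 78.0, 62.9 and 40.1 CPM in Polygalae Radix. The log2 ratio to vehicle at the high dose was 0.38 in Aucklandiae Radix and -0.96 in Polygalae Radix. In Soshiho-tang high it had 91.2 and 91.5 CPM, against 77.7 and 78.2 CPM at the low dose, and in Schisandrae Fructus high 87.5, 86.5 and 87.9 CPM, against 78.9, 75.9 and 78.4 CPM. Neither pair of groups overlapped, which is a description without a test. These changes against the low dose, 0.23 ± 0.11 and 0.16 ± 0.089, had adjusted p = 0.534 and 1 in edgeR, and both were below 0.05 in the fit of 52 libraries. Zizyphi Semen high had 81.3, 82.5 and 82.9 CPM, against 78.4, 80.3 and 77.9 CPM at the low dose, a change of 0.06 ± 0.090. Longan Arillus low replicate 3 had 115 CPM and Soshiho-tang medium replicate 3 had 63.6 CPM, far from the 75.4 and 77.9 CPM and the 79.7 CPM of the other libraries of those groups.

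CPT2 (chromosome 1, 53196429 to 53214197, plus strand), its partner in the inner mitochondrial membrane, was above vehicle at the low dose already. All 51 extract libraries in replicated groups, at 14.35 to 17.4 CPM, lay above the 14.28, 13.0 and 12.6 CPM of vehicle, as did 19 of 19 low-dose libraries. It was called higher at the high dose of Soshiho-tang (0.29 ± 0.066, adjusted p = 0.00396), Schisandrae Fructus (0.29 ± 0.059, adjusted p = 0.00586) and Liriopis seu Ophiopogonis Tuber (0.29 ± 0.059, adjusted p = 0.0119). Against their low doses the changes were 0.10 ± 0.073, 0.04 ± 0.059 and 0.06 ± 0.060, with adjusted p = 0.844, 1 and 1. Set and extract cannot be told apart here, and the share of all genes that lie above every vehicle library was not counted. The call was lost without high replicate 2 in Soshiho-tang (0.28, adjusted p = 0.082) and without vehicle replicate 3 in Schisandrae Fructus (0.25, adjusted p = 0.0761). In Liriopis seu Ophiopogonis Tuber it was lost without vehicle replicate 2 or 3 or high replicate 1 or 2 (0.25 to 0.29, adjusted p between 0.0716 and 0.157). In Polygalae Radix it was at 15.1, 14.0 and 8.58 CPM from low to high dose, and in Aucklandiae Radix at 16.9, 14.6 and 12.5 CPM.

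ACADVL (chromosome 17, 7217125 to 7225273, plus strand) was also above vehicle in most extract libraries, 42 of 51 in replicated groups and 18 of 19 at the low dose. Vehicle had 151, 142 and 145 CPM. Aucklandiae Radix had 187, 188 and 226 CPM from low to high dose, a log2 ratio of 0.63 to vehicle and 0.27 to the low dose at the high dose. Zizyphi Semen high had 167, 166 and 173 CPM, against 180, 191 and 179 CPM at the low dose, without overlap and in the direction opposite to its difference from vehicle. Longan Arillus high had 148, 183 and 185 CPM, against 191, 187 and 255 CPM at the low dose. The fall of -0.32 ± 0.098 (adjusted p = 0.0232) was not called without the 2 libraries that stand apart, of which 1 is the library at 255 CPM (-0.13, adjusted p = 0.551), nor without high replicate 1 (-0.22, adjusted p = 0.176).

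HADHA (chromosome 2, 26190635 to 26244726, minus strand) was far from vehicle in Polygalae Radix. In the 54 libraries of replicated groups it ran between 213 and 264 CPM, with 252, 259 and 254 CPM in vehicle, and its fitted changes at the high doses of 5 extracts lay between -0.04 ± 0.042 and 0.02 ± 0.042 against vehicle. Zizyphi Semen high had 257, 251 and 253 CPM and Aucklandiae Radix high had 254 CPM. In Polygalae Radix it was at 247, 136 and 44.3 CPM from low to high dose, with a counting interval of 41.9 to 46.8 CPM at the high dose. The log2 ratio at the high dose was -2.50 to vehicle and -2.45 to the low dose. It was the 1 member of 9 past 2-fold in Polygalae Radix high against vehicle, where 8.95% of genes were 2-fold lower (7.72% against the low dose). The gene lies beside HADHB on the opposite strand and overlaps it, and the strand setting of the counting is not given, so their reads cannot be fully told apart. The same holds for ANGPTL4 and RAB11B-AS1, CPT2 and C1orf123, and ACADVL and DLG4.

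**Figure D2:**
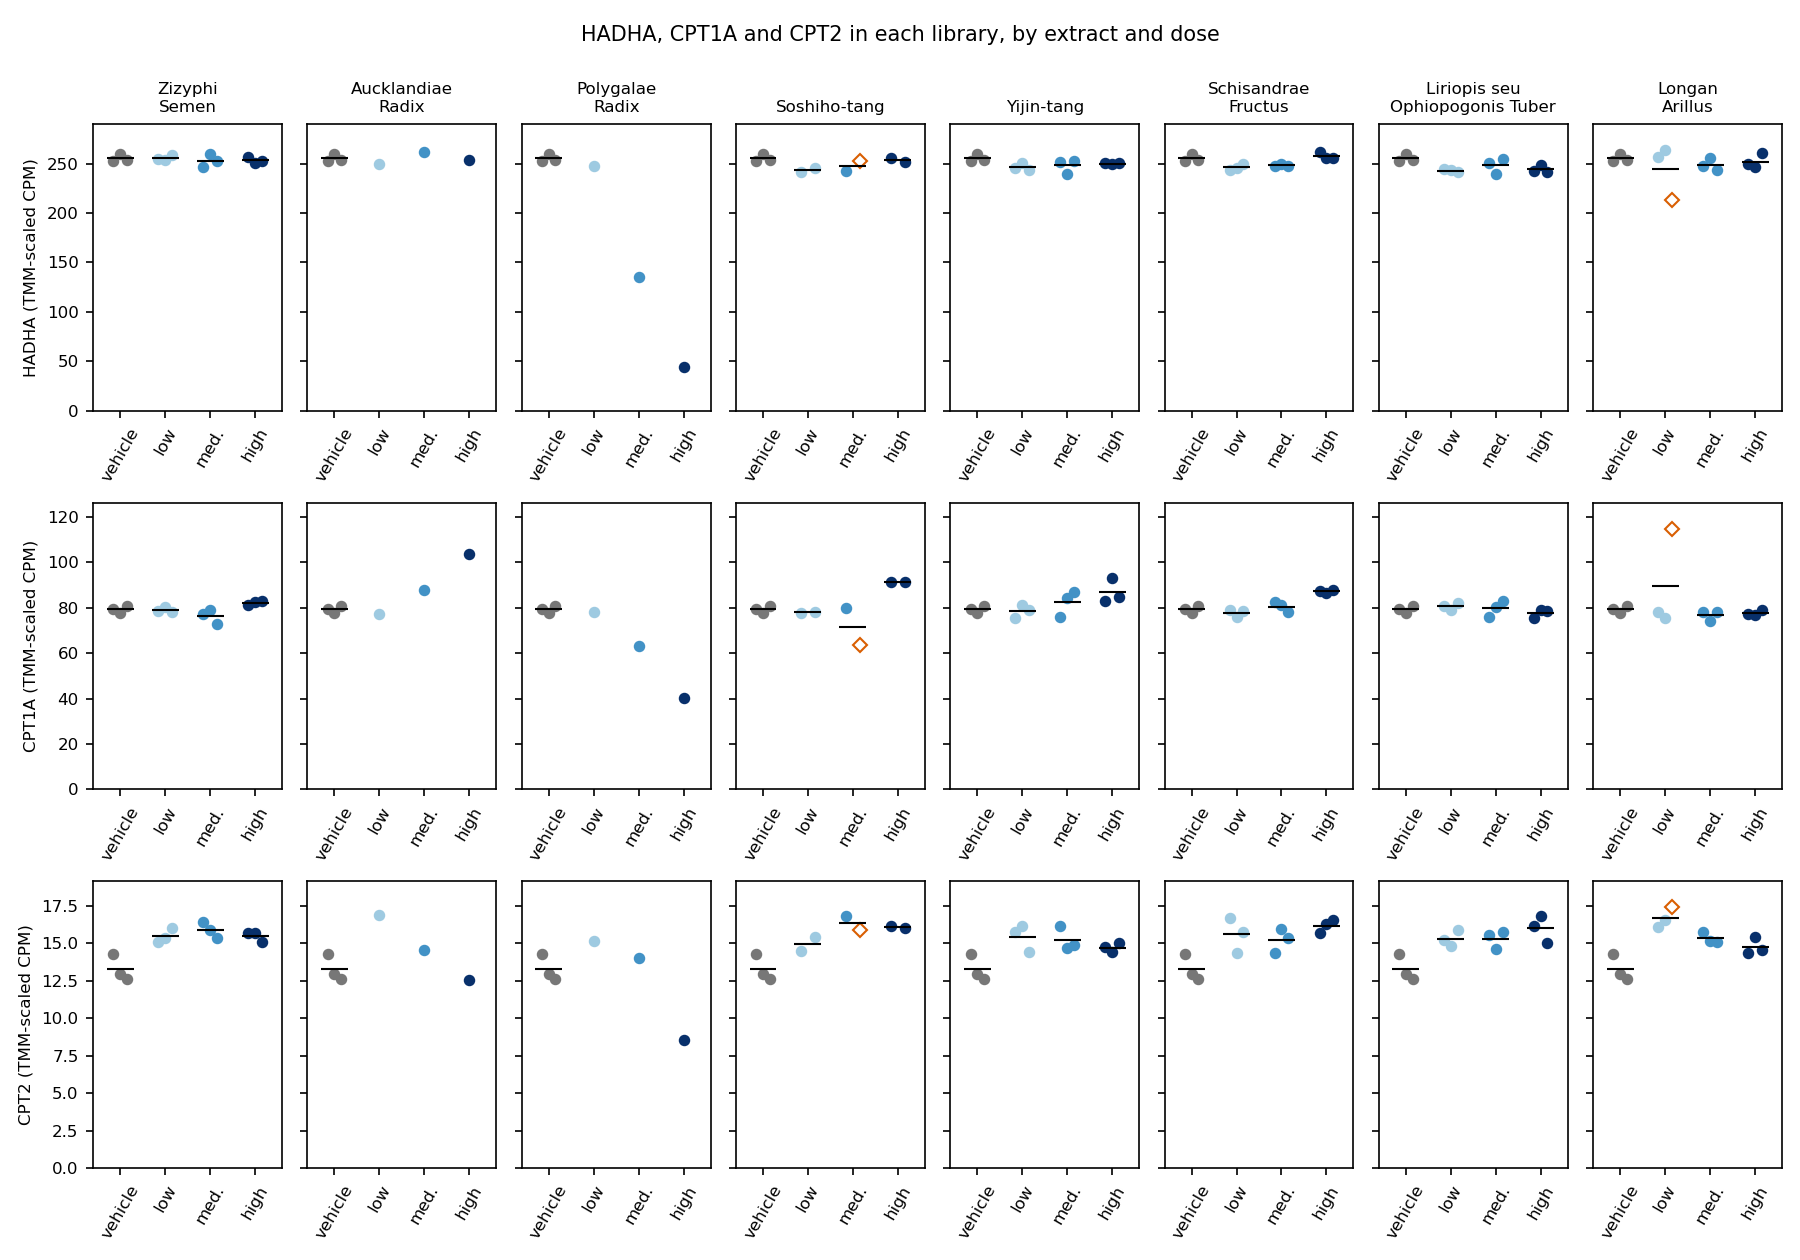
HADHA, CPT1A and CPT2 (rows) in TMM-scaled CPM for each library, with vehicle, low, medium and high dose from left to right in each extract; points are libraries, lines are group means, and open diamonds are the 2 libraries that stand apart. HADHA was at 44.3 CPM in Polygalae Radix high, and CPT2 in all 51 extract libraries of replicated groups lay above its 12.6 to 14.28 CPM in vehicle.

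Other beta-oxidation genes were low in the same Polygalae Radix library. Of 27 listed enzymes other than the members, 26 passed the filter. Of these, 18 were at least 2-fold lower than vehicle in Polygalae Radix high, where 8.95% of all genes were, and 1, CPT1B, was at least 2-fold higher. Their median log2 ratio was -1.10, against -0.02 over all genes tested. HADHB, the beta subunit that pairs with HADHA, had 24.0 CPM against a vehicle mean of 89.6 CPM, and ETFB, an electron acceptor of the pathway, 15.4 against 66.2 CPM. ECH1, which isomerizes unsaturated chains, had 36.2 CPM against 148 CPM. In the comparison with the low dose 13 were 2-fold lower, beside 7.72% of all genes. Scaling by total count in place of TMM factors raised all values of this library by 0.35 on the log2 scale. It left 9 of the 26 enzymes 2-fold lower (4.54% of all genes) and HADHA at -2.14, turned ANGPTL4 to 0.31 and brought ACADVL to -0.03. CPT1B was at 10.4 CPM at the low dose already, against 6.03 CPM in vehicle, and its reads may be shared with the readthrough gene that spans it. Summed epithelial and A549 markers in this library were 2617 CPM, against 15894 to 16232 CPM in vehicle, and their part in these values was not tested. In Aucklandiae Radix high, the same 26 enzymes had a median log2 ratio of -0.12 to vehicle. CPT1B alone was 2-fold higher, at 16.8 CPM, beside 0.797% of all genes.

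**Figure D3:**
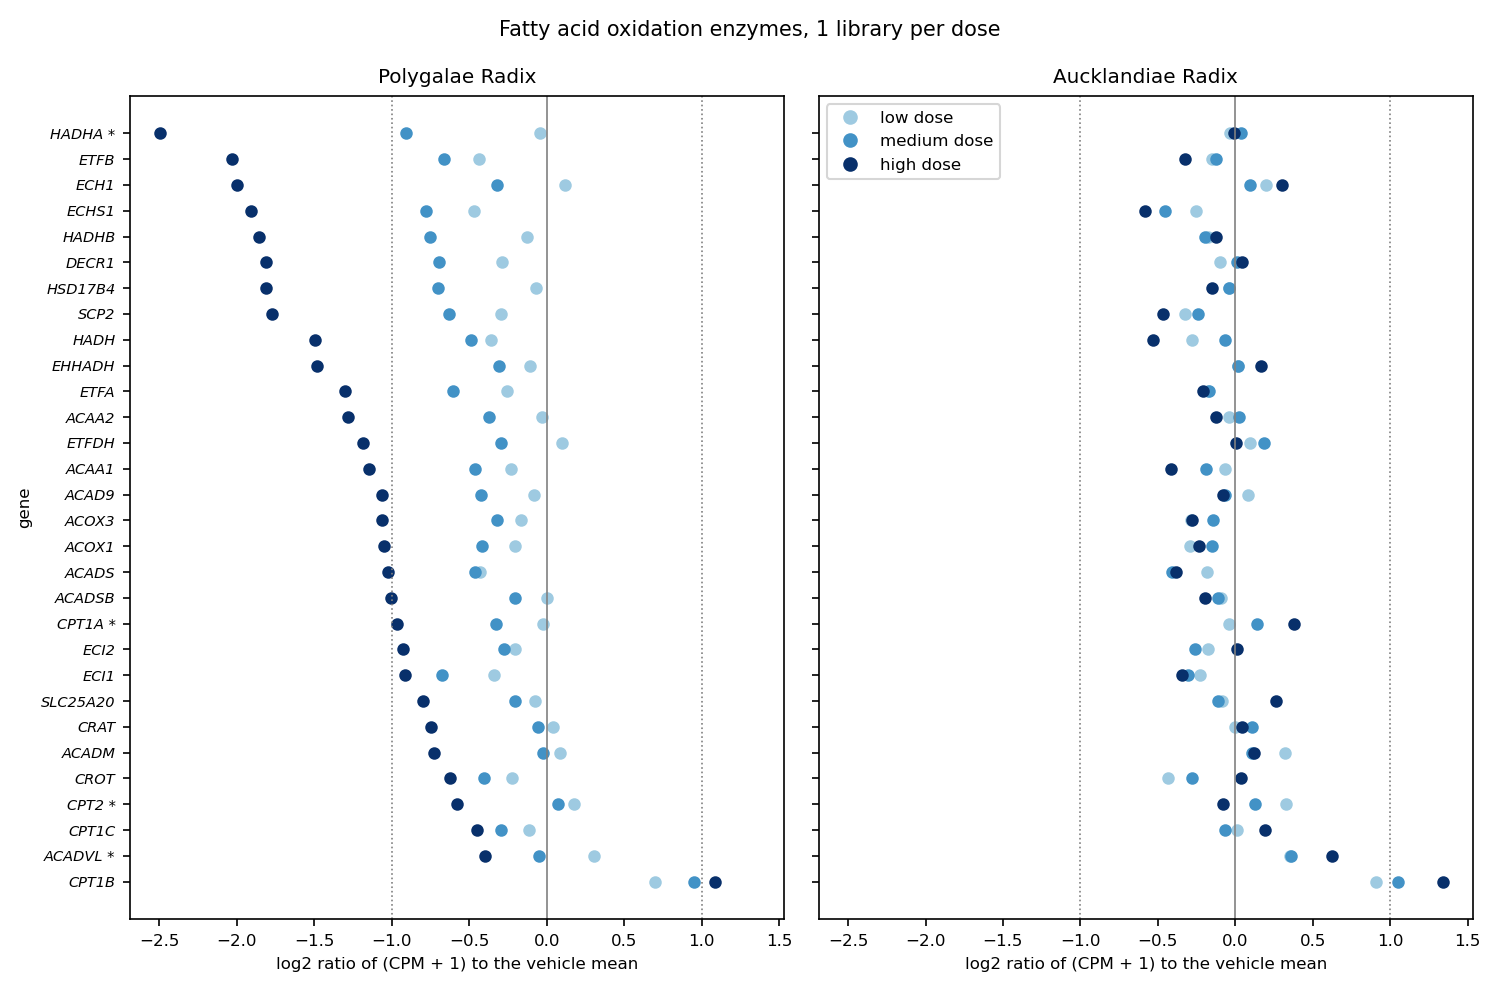
Log2 ratio of (CPM + 1) to the vehicle mean for 26 beta-oxidation enzymes and 4 members (asterisks) in Polygalae Radix and Aucklandiae Radix, 1 library per dose, shaded from low to high dose; dotted lines mark 2-fold. HADHA reached -2.50 in Polygalae Radix high and -0.01 in Aucklandiae Radix high.

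Neither receptor of the 9 was called in any comparison in edgeR over 54 libraries. PPARA (chromosome 22, 46150521 to 46243756, plus strand) was the scarcest member, at 5.41, 4.48 and 5.03 CPM in vehicle, and rested on 68 to 176 counts per library. Zizyphi Semen high had 3.92, 5.13 and 5.03 CPM, against 4.12, 3.65 and 5.71 CPM at the low dose. In Aucklandiae Radix it had 3.89, 3.19 and 5.80 CPM and in Polygalae Radix 4.94, 3.85 and 3.22 CPM from low to high dose. The 2 libraries of Soshiho-tang high had 6.34 and 6.29 CPM, above the vehicle libraries, with a change of 0.36 ± 0.19 (adjusted p = 0.36). PPARD (chromosome 6, 35342558 to 35428191, plus strand) had 10.8, 12.5 and 12.1 CPM in vehicle. It had 12.1, 11.97 and 14.0 CPM in Zizyphi Semen high, 13.1 CPM in Aucklandiae Radix high and 8.51 CPM in Polygalae Radix high. PPARG was at 34.9 ± 0.71 CPM in Zizyphi Semen high (n = 3) and 35.5 CPM in Aucklandiae Radix high, against 33.4 ± 0.46 CPM in vehicle (n = 3).

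**Figure D4:**
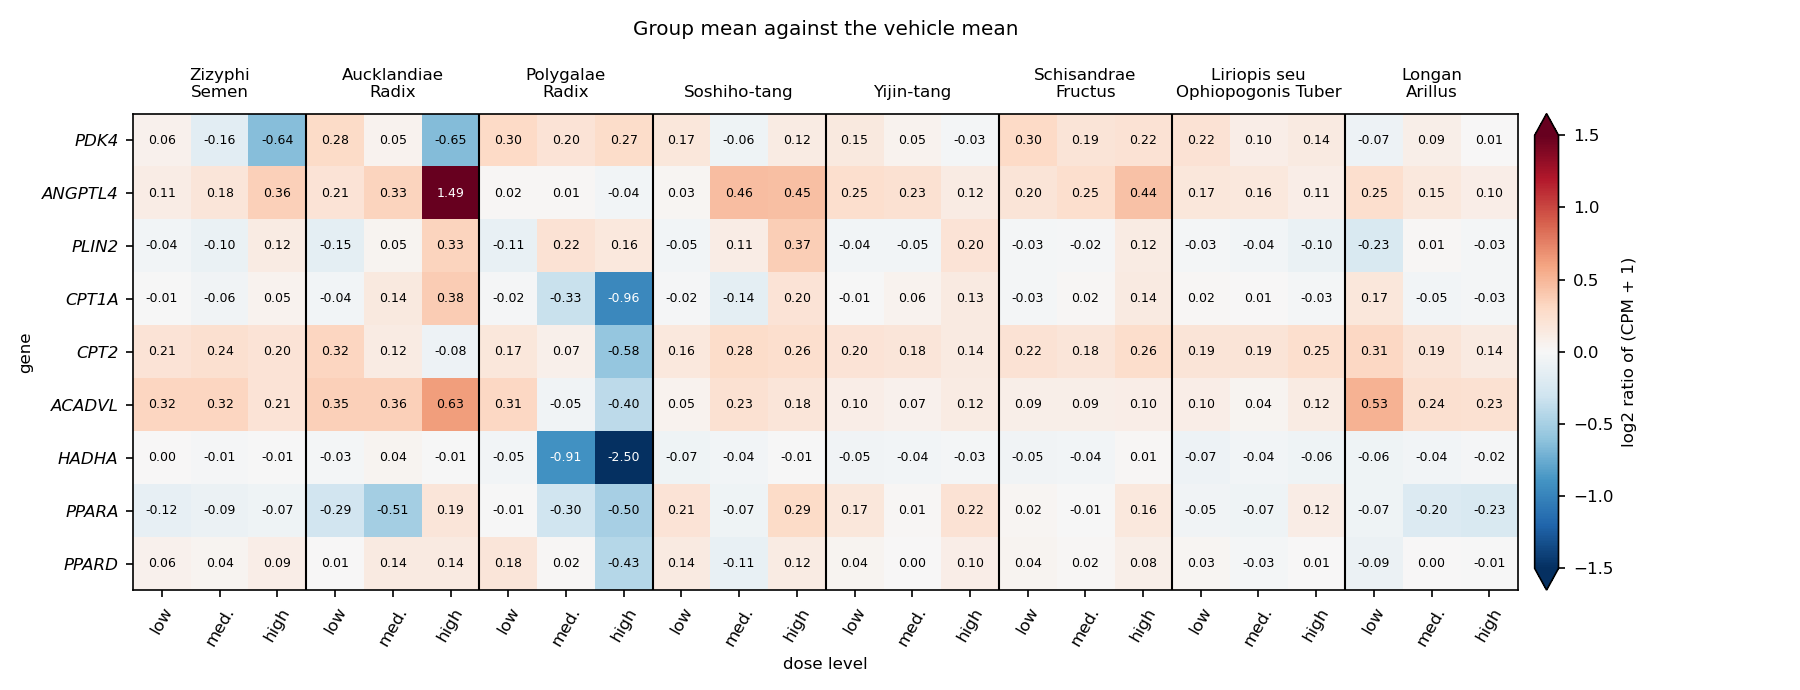
Log2 ratio of (CPM + 1) of each group mean to the vehicle mean for the 9 genes (rows) at the low, medium and high dose of 8 extracts (columns); red is higher and blue lower than vehicle, and colours saturate at 1.5. PDK4 was at -0.64 in Zizyphi Semen high and -0.65 in Aucklandiae Radix high, ANGPTL4 at 1.49 in Aucklandiae Radix high and HADHA at -2.50 in Polygalae Radix high.

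Calls were counted over the 8 genes other than PDK4. In Soshiho-tang high ANGPTL4, PLIN2 and CPT2, 3 of 8, were higher against vehicle, where 3.02% of all genes were called higher and 5.08% in either direction. PLIN2, 1 of 8, was higher against the low dose, where 1.17% were called higher and 1.58% in either direction. The fit of 52 libraries called 4 against vehicle (10.2% of genes higher), adding CPT1A, and 3 against the low dose (5.02%), adding ANGPTL4 and CPT1A. With high replicate 2 left out 0 were called against vehicle, and with high replicate 3 left out 2. Leaving out either of those libraries or low replicate 2 left 0 called against the low dose.

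Schisandrae Fructus high called ANGPTL4 and CPT2, 2 of 8, higher against vehicle, where 0.6% of all genes were called higher and 1.02% in either direction. Without vehicle replicate 3 the count was 0, and without vehicle replicate 1 or 2, or high replicate 2 or 3, it was 1. Against the low dose edgeR called 0 (0.00561% of genes), DESeq2 0 and limma voom 2, and 1 had an unadjusted p under 0.05. The fit of 52 libraries called 3 against vehicle (4.23% of genes higher), and ANGPTL4 and CPT1A against the low dose (0.911%). Liriopis seu Ophiopogonis Tuber high called CPT2 higher against vehicle (0.118% of genes higher, 0.32% in either direction; 2.62% higher in the fit of 52 libraries). That call was lost without vehicle replicate 2 or 3, or high replicate 1 or 2. Against the low dose edgeR called 0 members and 0.0% of genes in both fits, and DESeq2 and limma voom each called 0 and 0 members had an unadjusted p under 0.05.

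Yijin-tang high called 0 members in edgeR against vehicle (0.544% of genes; 2 members at an unadjusted p under 0.05, 0 by DESeq2, 3 by limma voom). Against the low dose it also called 0 (0.146%; 1 at an unadjusted p under 0.05, 0 by DESeq2, 2 by limma voom). The fit of 52 libraries called PLIN2 and CPT1A higher against vehicle (3.04% of genes higher) and 0 against the low dose (0.987%). Longan Arillus high called 0 in edgeR against vehicle (1.33% of genes; 2 members at an unadjusted p under 0.05, 0 by DESeq2, 3 by limma voom), and ACADVL higher in the fit of 52 libraries (5.55% higher). Against its low dose it called CPT2 and ACADVL lower, where 15.0% of all genes were lower and 18.8% called in either direction. Without low replicate 3, one of the 2 libraries that stand apart, or high replicate 1 the count was 0, without high replicate 3 it was 1, and without low replicate 1 or 2 it was 5 or 4. The fit of 52 libraries also called 0 (0.0878% of genes). The difference in the low-to-high change between Soshiho-tang and Yijin-tang called 0 members in edgeR (0.286% of genes; 1 member at an unadjusted p under 0.05, 0 by DESeq2, 1 by limma voom), and ANGPTL4 in the fit of 52 libraries (1.61% higher). That between Schisandrae Fructus and Liriopis seu Ophiopogonis Tuber called 0 in both fits (0.0% and 0.318% of genes; 2 members at an unadjusted p under 0.05, 0 by DESeq2, 1 by limma voom).

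**Figure D5:**
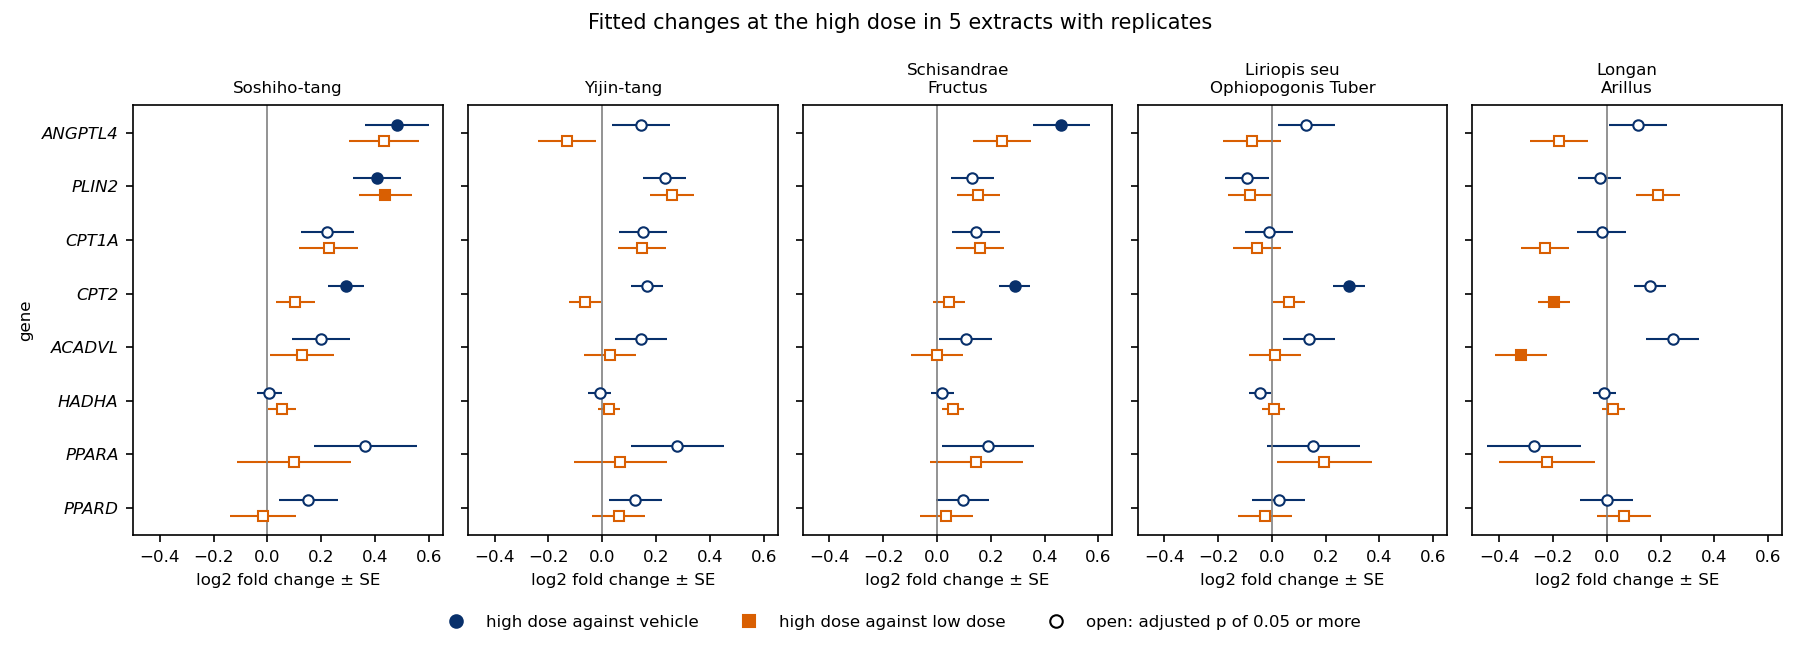
Fitted log2 fold change with its SE (bars) of 8 genes at the high dose of 5 extracts, against vehicle (circles) and against the low dose (squares); filled symbols have an adjusted p below 0.05 in edgeR. PLIN2 in Soshiho-tang was called in both comparisons, and CPT2 was called against vehicle in 3 extracts and against the low dose in 1, Longan Arillus, where it was lower and the call rests on a library that stands apart.

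Few other PPAR targets were called. Of 27 listed targets other than the members, 16 passed the filter. Among these 16, ACSL3, which activates fatty acids, was higher in Soshiho-tang high (278 ± 0.48 CPM, n = 2) than in vehicle (217 ± 2.65 CPM, n = 3) by 0.38 ± 0.072 (adjusted p = 0.000623), and by 0.30 ± 0.080 against the low dose (adjusted p = 0.0348). UCP2, a mitochondrial carrier, fell to 44.3 ± 0.84 CPM, against 56.9 ± 0.22 CPM in vehicle (-0.34 ± 0.068, adjusted p = 0.000859), with a change of -0.33 ± 0.074 against the low dose (adjusted p = 0.0099). The list's median log2 fold change was 0.01 against vehicle, with 0.00 over all genes. In Soshiho-tang high 5.08% of all genes were called against vehicle and 1.58% against the low dose. Longan Arillus high had CPT1B higher against vehicle (0.73 ± 0.17, adjusted p = 0.0201). CPT1B was not called there against the low dose in either fit. Over 52 libraries edgeR also called CPT1B higher against vehicle in Soshiho-tang high (0.55 ± 0.20, adjusted p = 0.0444) and Yijin-tang high (0.57 ± 0.18, adjusted p = 0.0439). In Zizyphi Semen high its change in that fit, given without a test, was 0.56 ± 0.18. Set and extract cannot be told apart in these differences from vehicle. The comparison of Longan Arillus high with the low dose called 13 genes of the 6 lists (higher ACSL1, SCP2, HSD17B4, DLAT, SIRT1, PPARG and RXRA; lower ETFB, ACADS, ECH1, MPC2, PDP2 and IRS2), and the fit of 52 libraries called 0 of them. In these fits 18.8% and 0.0878% of all genes were called. For Zizyphi Semen high the list's median was -0.06 against vehicle and 0.00 against the low dose, and in Aucklandiae Radix high its median log2 ratio was -0.08 against both. Of 26 beta-oxidation enzymes, ECH1 rose in Soshiho-tang high against vehicle (0.46 ± 0.093, adjusted p = 0.00121), 1 of 26 beside 3.02% of all genes called higher, and against the low dose (0.39 ± 0.10, adjusted p = 0.0341).

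Genes of other regulators of PDK4 were also read. Of 17 PPAR partners and coregulators tested, LPIN1, a coactivator and lipid phosphatase, rose in Soshiho-tang high and stood at 93.7 ± 4.18 CPM (n = 2), vehicle at 57.8 ± 2.26 CPM (n = 3), a rise of 0.72 ± 0.097 (adjusted p = 2.31e-06) and of 0.67 ± 0.11 against the low dose (adjusted p = 8.65e-05). This was 1 of 17, beside 5.08% of all genes called against vehicle. In Yijin-tang high LPIN1 rose by 0.38 ± 0.088 against vehicle (adjusted p = 0.0226), and from low to high dose it was called over 52 libraries (0.36 ± 0.042, adjusted p = 7.65e-08) but not over 54. Of 9 glucocorticoid-induced genes tested, TSC22D3 rose in Soshiho-tang high by 1.52 ± 0.10 against vehicle (adjusted p = 6.29e-14) while SGK1 fell (-0.22 ± 0.055, adjusted p = 0.00972), and against the low dose the values were 1.42 ± 0.12 (adjusted p = 1.69e-11) and -0.34 ± 0.060 (adjusted p = 0.000506). Of all genes, 5.08% were called against vehicle and 1.58% against the low dose. Over 52 libraries ERRFI1 and NFKBIA were also called higher against vehicle and FKBP5 lower, where 3920 of 18228 genes were called. Against the low dose that fit also called ERRFI1 and DUSP1 higher and FKBP5 lower, where 1734 genes were called. From low to high dose in Yijin-tang it called KLF9, SGK1 and ERRFI1 lower, beside 0.987% of all genes. In Schisandrae Fructus high TSC22D3 rose by 0.37 ± 0.094 against vehicle (adjusted p = 0.0363). DUSP1 was lower against vehicle in Yijin-tang, Liriopis seu Ophiopogonis Tuber, Schisandrae Fructus and Longan Arillus, by log2 fold changes between -0.38 ± 0.075 and -0.29 ± 0.075 (adjusted p between 0.00519 and 0.0478), where 0.32% to 1.33% of all genes were called. It was not called against the low dose in any of these 4 extracts in either fit, and set and extract cannot be told apart in the difference from vehicle. TSC22D3 was at 8.67 ± 0.41 CPM in Zizyphi Semen high and 7.67 CPM in Aucklandiae Radix high, against 7.84 ± 0.44 CPM in vehicle. Of 9 FOXO-linked genes, CCNG2 rose against vehicle in Soshiho-tang (0.53 ± 0.12, adjusted p = 0.00499) and Schisandrae Fructus (0.60 ± 0.11, adjusted p = 0.00162), and FBXO32 in Schisandrae Fructus (0.63 ± 0.16, adjusted p = 0.0331), beside 5.08% of all genes called in Soshiho-tang and 1.02% in Schisandrae Fructus. Neither gene was called against the low dose in edgeR over 54 libraries, and CCNG2 was in Schisandrae Fructus over 52 (0.45 ± 0.10, adjusted p = 0.0104). Without a test, the FOXO-linked list had a median of 0.22 in Zizyphi Semen high against vehicle and 0.10 against the low dose, and of 0.49 and 0.46 in Aucklandiae Radix high. Against vehicle it was 0.35 in Schisandrae Fructus high and 0.22 in Soshiho-tang high. Over all genes the medians against vehicle were -0.002 in Zizyphi Semen high, -0.017 in the 1 library of Aucklandiae Radix high, -0.002 in Schisandrae Fructus high and 0.003 in Soshiho-tang high. A part of FOXO factors in the PDK4 levels was not tested.

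Over the 25 group means, the genes most like PDK4 by Pearson correlation of log2 levels, among 11008 genes with a mean of at least 5 CPM, were PTGS2 (r = 0.86), FAM107B (0.84), MDM1 (0.78), TBX3 (0.77), SMAD2 (0.75), CDCA7L (0.72), MID1 (0.70) and ZNF703 (0.70). The points share library sets and vehicle, and both lowest groups weigh on r. Over the 19 replicated groups PTGS2 and FAM107B stayed at 0.81 and 0.84, while ZNF703 was at 0.35. PTGS2, the inducible prostaglandin synthase, had 18.5 ± 1.95 CPM in Zizyphi Semen high and 13.6 CPM in Aucklandiae Radix high, against 29.7 ± 1.97 CPM in vehicle. FAM107B had 147 ± 3.44 CPM in Zizyphi Semen high and 156 CPM in Aucklandiae Radix high, against 174 ± 4.32 CPM in vehicle. Of the members, ANGPTL4 had r = -0.65 with PDK4, which was -0.18 over the 19 replicated groups. ACADVL had -0.50, which was -0.39 over the 19 groups. CPT1A had -0.40 and PLIN2 -0.33, which were -0.02 and -0.10 over the 19 groups, so these values rest on the single libraries. CPT2 had 0.02 and, over the 19 groups, -0.02. PPARA was below the level limit of this comparison.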

How the data were processed

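RNA from A549 cells was sequenced as 100 bp read pairs in 60 libraries. The values the authors deposited are expected counts for each gene, unscaled, of which 10.485% were not whole. Per the submitters' processing notes, the genome build was hg38 (GRCh38) and the tools included RSEM 1.3.3, STAR 2.7.3a, Trim Galore 0.6.5 and FastQC 0.11.9. For the annotation release and the strand setting, the sources used here give nothing.

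Counts were rounded. The 54 libraries of 19 replicated groups were fitted together in edgeR 4.0.16 (TMM factors, filterByExpr by group, robust quasi-likelihood F test, Benjamini-Hochberg adjustment over 17826 genes) in R 4.3.3, after a test on simulated data. Totals of 18.003 to 33.832 M leave genes under about 1 CPM with few counts. Replicates were all kept as separate libraries. In 51 pairs the chi-square of their counts per degree of freedom was at least 1.863, where larger values mean worse agreement. It reached 153.625 in Soshiho-tang medium and 375.743 in Longan Arillus low, in pairs that hold a library that stands apart. Polygalae Radix and Aucklandiae Radix, with 1 library per dose, have no test, and their values are log2 ratios with 1 CPM added.

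The members and all gene lists were chosen with earlier results of these data known. Named genes were up to 3 called per list, direction and comparison, PDK1 to PDK3, and the 8 genes most like PDK4; PPARG, and the genes of the Polygalae Radix and Aucklandiae Radix libraries, were named after their values were seen. Promoter sequences are from RefSeq. Alternatives were upper quartile and DESeq2 size factors, other filters, a replicate block, fits on the compared groups only, DESeq2 1.42.0, limma 3.58.1 voom, and leaving out libraries.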

Additional observations from a re-analysis of the deposited data

Results flagged for a closer look

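Group means of ANGPTL4 moved in opposite directions from low to high dose in the 2 mixtures of set 8. The change in Yijin-tang was called in neither fit. Its ranges lay close together, with a highest value of 23.75 CPM at the high dose and a lowest of 23.868 CPM at the low dose. The log2 ratio of the mean level at the high dose to that at the low dose was 0.434 in Soshiho-tang, where both high-dose libraries lay above both low-dose libraries, and -0.137 in Yijin-tang, where all 3 high-dose libraries lay below all 3 low-dose libraries. In edgeR the difference of the fitted changes was 0.56 ± 0.17 with adjusted p = 0.289 over 54 libraries. Without the 2 libraries that stand apart it was 0.56 ± 0.091 with adjusted p = 4.98e-05.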

How the results depend on the processing

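No called value turned its direction. ANGPTL4 in Polygalae Radix high, which has no test, turned its sign, with -0.036 under TMM factors. PDK4 in Zizyphi Semen high lay between -0.691 and -0.606 against vehicle and between -0.792 and -0.691 against the low dose when 1 library was left out. For Polygalae Radix high, scaling by total count moved the log2 ratios to vehicle to 0.628 (PDK4), 0.314 (ANGPTL4), 0.504 (PLIN2), -0.606 (CPT1A), -0.247 (CPT2), -0.033 (ACADVL), -2.14 (HADHA), -0.216 (PPARA) and -0.101 (PPARD), since it raises all values of that library. For Aucklandiae Radix high it gave -0.001 (CPT2) and 0.076 (HADHA). In Zizyphi Semen, leaving out 1 library gave 0.205 to 0.298 for CPT2 against vehicle, and against the low dose 0.066 to 0.273 for PLIN2 and -0.06 to 0.266 for PPARA.

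Counts of called members moved under several alternatives. Without the 2 libraries that stand apart they were 3 for Soshiho-tang against low, 2 for Yijin-tang against vehicle, 2 for Schisandrae Fructus against low, 1 and 0 for Longan Arillus against vehicle and low, and 1 for the difference between Soshiho-tang and Yijin-tang. With limma voom quality weights they were 6 and 3 for Soshiho-tang, 3 and 2 for Yijin-tang, 2 for Liriopis seu Ophiopogonis Tuber against vehicle, 2 for Schisandrae Fructus against low, 3 and 0 for Longan Arillus, and 1 for each of the 2 differences between extracts. Fits on the compared groups only gave 6 and 3 for Soshiho-tang, 3 and 1 for Yijin-tang, 2 for Liriopis seu Ophiopogonis Tuber against vehicle, 0 for Longan Arillus against low and 1 for the Soshiho-tang and Yijin-tang difference. With no filter the count was 0 for Soshiho-tang against low, Liriopis seu Ophiopogonis Tuber against vehicle and Longan Arillus against low, and 1 for Schisandrae Fructus against vehicle. Leaving out 1 library gave 0 to 3 and 0 to 1 for Soshiho-tang, 0 to 1 for Liriopis seu Ophiopogonis Tuber against vehicle, 0 to 2 for Schisandrae Fructus against vehicle and 0 to 5 for Longan Arillus against low, where 0 was the count without Longan Arillus low replicate 3. Soshiho-tang against vehicle had 0 without high replicate 2. The cause of these moves was not tested.

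Replicate numbers were not used to pair the samples, since in no comparison of a high dose with vehicle or low dose did every pair correlate above 0.1. Single pairs did: correlations ran from -0.017 to 0.263 in Longan Arillus high against low. Medium doses were not part of this check, so a pairing is not excluded. The replicate block left all 12 counts as they were, 3 for Soshiho-tang against vehicle and 2 for Longan Arillus against low among them.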
